A study of Mus musculus with 14 samples.

Results

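The genes described here are 10 histone genes of the mouse that lay at regions of gained chromatin accessibility after cycloheximide. Of 115 histone genes in the RefSeq annotation of GRCm38.p6, 70 lie in 3 clusters, on chromosome 13 (21.7 to 24.0 Mb), chromosome 3 (96.2 to 96.35 Mb) and chromosome 11 (58.9 to 59 Mb). Each listed region whose centre fell in these windows was assigned to its nearest histone gene, and the 10 genes are those with a gained region centred within 1 kb of the gene. They are H1f1 and H1f4 for linker histone H1, H2ac1 and H2aw for H2A, H2bc1 and H2bu2 for H2B, H3c11, H3c13 and H3c15 for H3, and H4c14 for H4. The members were thus chosen by the position of their regions in the gained list, a measured result, so that their presence in it is a description and has no test. The member nearest to the limit was H3c15, 306 bp from its region centre, and the first region past the limit lay 42799 bp from H2bc18.

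The study used E14, an established line of mouse embryonic stem cells, kept in medium with serum and the cytokine LIF, and compared them after 3 hours in 1 µg/ml cycloheximide or in DMSO, the control. Cycloheximide blocks translation elongation by the ribosome. Open chromatin was mapped by ATAC-seq, a method that inserts sequencing adapters where DNA is exposed to a transposase, in 4 control and 4 cycloheximide libraries, and the other 6 libraries of the series (H4K16ac ChIP-seq and inputs) were not analysed here. The authors' deposited tables hold 734 gained and 454 lost regions as positions only, so no value per library, depth, size of change or replicate error can be given for a gene.

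Histones are the proteins around which DNA is wrapped: H2A, H2B, H3 and H4 form the nucleosome core, and H1 binds the DNA between cores. Most histone genes are short, lack introns, lie together in clusters and are transcribed mainly in S phase, when newly made DNA has to be packed, from nuclear bodies that gather the coactivator NPAT and the factors that process the ends of histone transcripts. Histone messenger RNA is also known to be stabilised when protein synthesis is inhibited, but RNA was not measured in this series.

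The 3 windows held 12 gained regions and 0 lost regions in the authors' deposited tables. A count of 0 among 454 lost regions allows a share of up to 0.661%, for counting error only. Of the 12 gained regions, 10 lay at a histone gene, with centres 0 to 306 bp from the gene. The other two lay far outside the 1 kb limit, at 42799 and 379869 bp from the nearest histone gene, and no region lay in between. The nearest lost region was 1.608 Mb from H3c11, 2.186 Mb from H2bu2 and 4.204 Mb from H3c15, and for each of the 10 genes it was more distant than 1 Mb.

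Counting every gene with a gained region centred within 1 kb of its span, whether or not it is the nearest gene, 14 of the 70 cluster histone genes were called (20%), against 198 of 21887 protein-coding genes (0.905%). For lost regions the counts were 0 of 70 (0%) and 180 of 21887 (0.822%). Among protein-coding genes of at most 1000 bp, the size of most histone genes, 12 of 1577 had a gained region (0.761%), and all 12 were histone genes of the clusters, while 0 had a lost region (0%). These counts come from the contrast that chose the genes, and nothing is read from them about cause or chance. None of the 45 histone genes outside the clusters had a gained or lost region within 1 kb (0%). The nearest listed region of these was 138066 bp away, at Macroh2a3. Beside shares of 0.905% and 0.822% over all protein-coding genes, 0 of 45 is near the background and is not a result about them.

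The 10 genes nearest to a region, referred to below as called genes, were spread unevenly over the clusters. On chromosome 11, 2 of 4 histone genes were nearest to a gained region, on chromosome 3 it was 3 of 10, and on chromosome 13 it was 5 of 56. Chromosome 13 falls into 4 groups of histone genes that are more than 100 kb apart. The first held 19 genes with 1 called as nearest (H3c11), the second 5 genes with none, the third 30 genes with 2 (H1f4 and H1f1), and the fourth consists of H2bc1 and H2ac1 alone, both called. By type, the genes nearest to a gained region were 2 of 6 for H1, 2 of 20 for H2A, 2 of 19 for H2B, 3 of 13 for H3 and 1 of 12 for H4. Each core histone and the linker histone were thus represented, with no type called throughout. These counts are small, and differences between clusters or types were not tested. The H3 and H2B counts also rest on a tie, as the centre of the H3c13 region is equally far from H2bc18, an H2B gene.

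**Figure D1:**
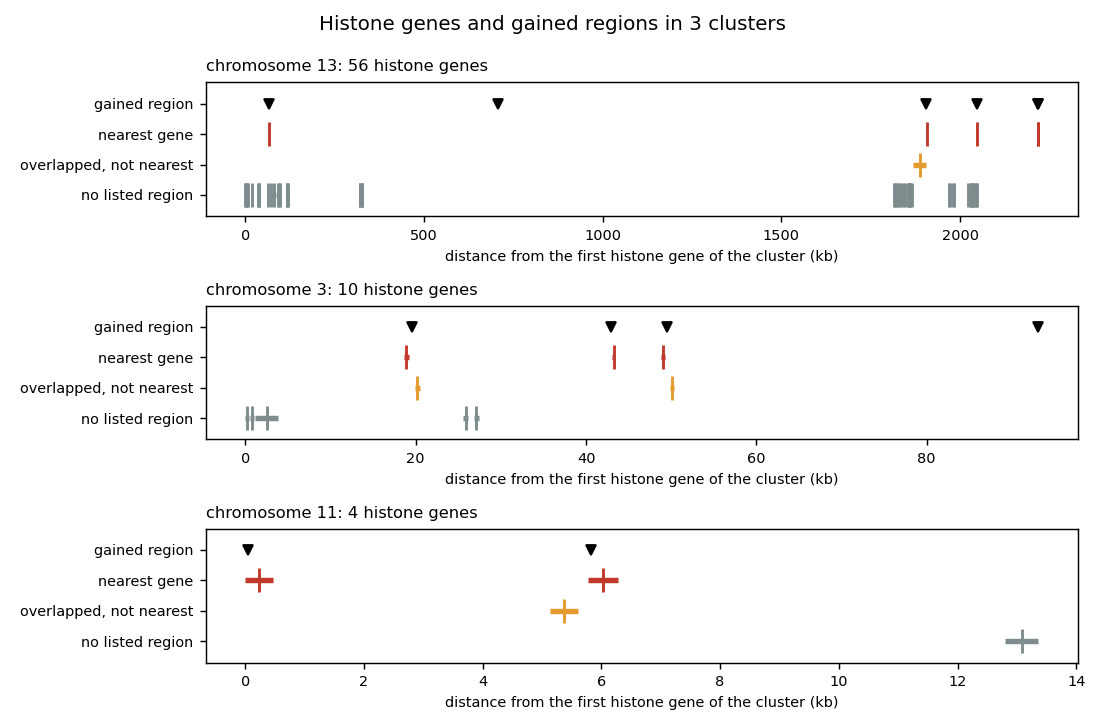
Position of 70 histone genes and 12 gained regions in 3 clusters, as distance in kb from the first histone gene of each cluster; ticks and lines are genes, in rows by their relation to the regions, and triangles are gained regions. The 50 genes of chromosome 13 without a listed region lie in long runs, whereas 5 of 10 on chromosome 3 and 3 of 4 on chromosome 11 are touched by a region.

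A further 4 histone genes were overlapped by the same regions without being assigned as the nearest gene. They are H2ac19 and H2bc18 on chromosome 3, H2bc6 on chromosome 13 and the transcribed pseudogene H2bu1-ps on chromosome 11. H2bc18 is as far from the centre of its region as H3c13, and only the rounding of the centre to a whole base assigned that region to H3c13. The remaining 56 had no listed region within 1 kb of either edge and serve for comparison. The closest of these was H3c1, which lies next to H1f1 and was 1034 bp from the edge of that region, followed by H1f5 at 1849 bp (from the H3c11 region), H4c1 at 2171 bp, H2ac22 at 3228 bp and H2bc22 at 3937 bp.

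The regions at histone genes were wide. In the authors' deposited table the H3c15 region measured 2203 bp, the sixth widest of 734, those at H3c13 1786 bp, H1f4 1727 bp and H1f1 1522 bp, and those at H4c14 1326 bp and H3c11 1071 bp. The H2aw region measured 927 bp, that at H2bu2 789 bp, that at H2ac1 618 bp and that at H2bc1 401 bp. The median over the 10 was 1198.5 bp, against 352.5 bp over the 724 other gained regions and 440 bp over lost regions. More than 1000 bp was reached by 6 of the 10 (60%) and by 78 of the 724 others (10.8%). The narrowest, at H2bc1, was still wider than 55.3% of gained regions. It lay 24 bp from the H2ac1 region, and the 2 become 1 when regions within 50 bp are joined. Widths were compared as a description, since regions of a list are no replicates.

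**Figure D2:**
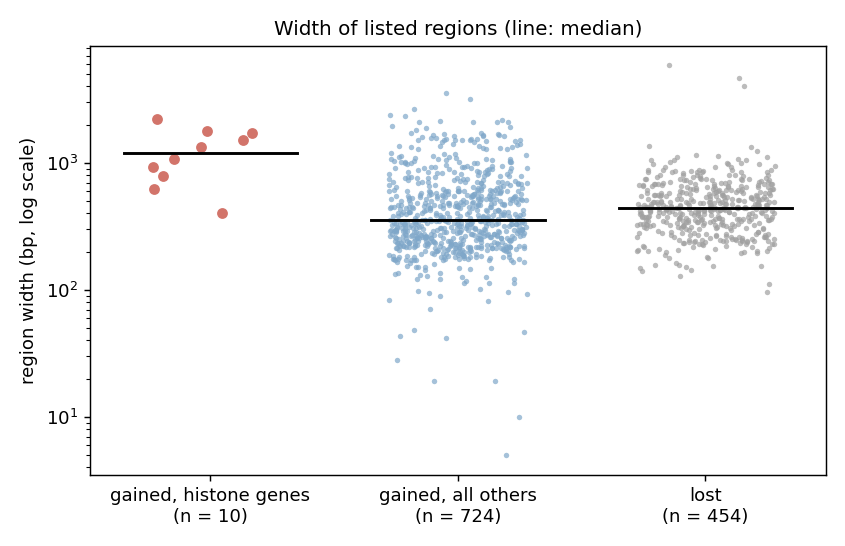
Width in bp (log scale) of the 10 gained regions at histone genes, the 724 other gained regions and the 454 lost regions; points are regions and lines are medians. All 10 histone regions lie above the median of the other gained regions, 352.5 bp.

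Each of the 2 deposited lists runs through the chromosomes once and then starts again, so that it consists of 2 sorted blocks whose meaning is not given in the sources used here. The first block of the gained list holds 194 of the 734 regions (26.4%). It holds 7 of the 10 regions at histone genes (70%), namely those at H2aw, H3c11, H1f4, H2bc1, H2ac1, H4c14 and H3c13. The regions at H2bu2, H1f1 and H3c15 are in the second block.

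Most regions covered their gene from end to end. A single region contained the whole gene for 7 of the 10, namely H1f1, H1f4, H2aw, H3c11, H3c13, H3c15 and H4c14, and covered 97.0% of H2bu2, 81.2% of H2bc1 and 58.9% of H2ac1. In the whole gained list only these 7 regions contained a complete protein-coding gene, 9 genes in all with H2ac19 and H2bc18, and no lost region contained one. Most histone genes are short, with a median span of 492.5 bp for the 10 genes and 489 bp for the 56 without a region. The spans ranged from 384 to 782 bp in the 10 and from 360 to 14079 bp in the 56. A relation to gene length was not tested. Counting the protein-coding starts of the promoter table, 28 gained regions held a start, 8 of them in the clusters, and 1 lost region did. That table has no entry for H4c14, so its region is not counted here although it contains the whole gene.

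The position of the regions along the genes was then followed from the annotated start in the direction of transcription. Start and strand were known for 9 of the 10 genes (not for H4c14). All 9 starts lay within a gained region, 8 in the gene's own and that of H2bc1 in the neighbouring H2ac1 region. Of the 11044 bp in the 9 regions, 28.2% lay before the start, 43.0% in the gene and 28.8% past its end. The regions reached past the gene end at 7 of 9 genes, and at 5 of 9 they held more bases past the end than before the start.

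**Figure D3:**
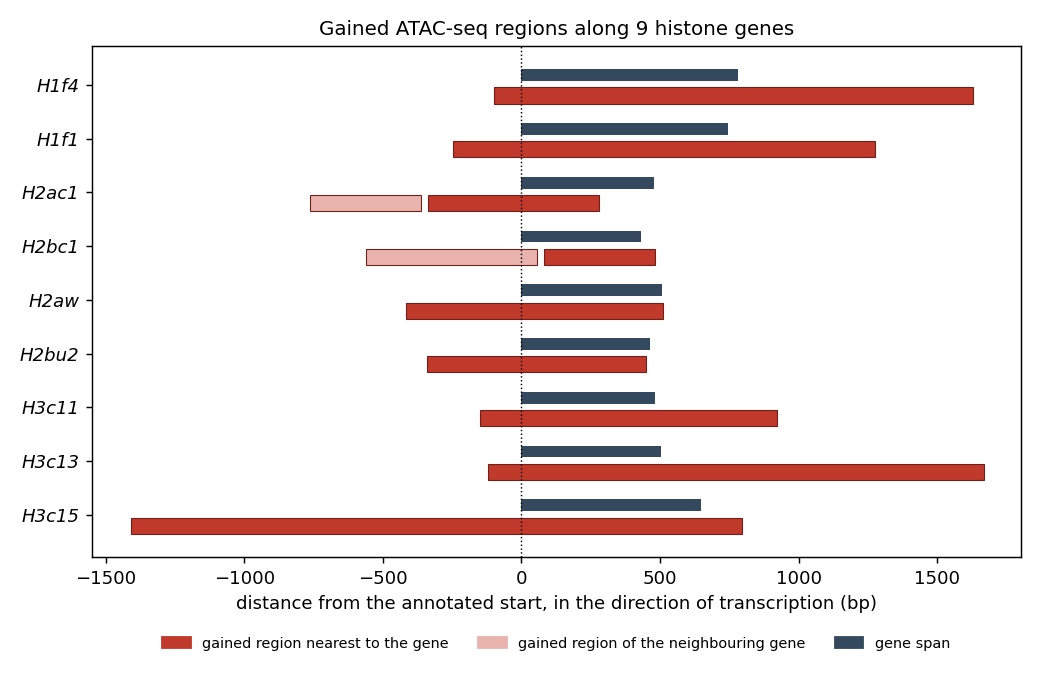
Gained regions (red; light red for the region assigned to the neighbouring gene) and gene spans (dark blue) at 9 histone genes, as distance in bp from the annotated start in the direction of transcription. Regions at H1f4, H1f1, H3c11 and H3c13 begin 100 to 247 bp before the start and end 440 to 1165 bp past the gene.

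The linker histone genes H1f4 (gene 50709, chr13:23621777-23622558, minus strand) and H1f1 (gene 80838, chr13:23763668-23764412, plus strand) encode H1.4 and H1.1, which compact the nucleosome fibre. The H1f4 region began 100 bp before the start and ended 845 bp past the end of the 782 bp gene, where it overlapped the upstream start of H2bc6, a long H2B transcription unit on the same strand. The H1f1 region began 247 bp before the start and ended 530 bp past the end of the 745 bp gene, and touched no other histone gene. Both regions thus extended further downstream than upstream. The other 4 H1 genes of chromosome 13, H1f2, H1f3, H1f5 and H1f6 (the last a testis form), had no listed region. The 250 bases before the start of the called H1 genes are shown because H1 promoters carry a known order of elements, with the AC box (AAACACA) upstream of a CCAAT box and a TATA box (TATAAA). They are RefSeq sequences of GRCm38.p6, at chr13:23622559-23622808 on the minus strand and chr13:23763418-23763667 on the plus strand, printed 5′ to 3′ in the direction of the gene, with matches to these 3 motifs in capitals.
H1f4: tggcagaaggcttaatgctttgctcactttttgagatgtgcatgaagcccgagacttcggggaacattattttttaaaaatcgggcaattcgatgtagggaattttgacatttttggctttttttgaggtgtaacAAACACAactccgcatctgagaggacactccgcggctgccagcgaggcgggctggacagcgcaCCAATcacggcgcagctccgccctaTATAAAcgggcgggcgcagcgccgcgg
H1f1: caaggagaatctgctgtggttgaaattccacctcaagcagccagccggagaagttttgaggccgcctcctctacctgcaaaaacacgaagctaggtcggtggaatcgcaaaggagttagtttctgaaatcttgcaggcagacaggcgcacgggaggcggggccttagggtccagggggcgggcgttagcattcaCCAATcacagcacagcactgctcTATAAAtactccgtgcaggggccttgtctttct
The H1f4 promoter held the AC box at -115, the CCAAT box at -52 and the TATA box at -27, counted in bp from the start, at the first base of each match. The AC box of H1f4 lay outside its region, which began at -100. The H1f1 promoter held the CCAAT box at -56 and the TATA box at -33, with no match to AAACACA. All 4 H1 genes without a region held an AC box and a CCAAT box, and 2 of the 4 a TATA box.

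H2bc1 (gene 319177, chr13:23933725-23934156, minus strand) and H2ac1 (gene 319163, chr13:23934437-23934913, plus strand), with the synonyms Th2b and Th2a, encode the H2B and H2A forms known from the testis and also from the oocyte. They are transcribed away from each other, from starts 281 bp apart. The H2ac1 region spanned from 337 bp before to 280 bp after the H2ac1 start and covered the whole interval between the starts. The H2bc1 region lay wholly downstream of the H2bc1 start, from 81 to 481 bp, over the body and end of that gene. Neither region reached the end of H2ac1. The 250 bases before the H2ac1 start, chr13:23934187-23934436 on the plus strand, are shown because they are the shared promoter and lie entirely within the gained region; capitals mark, on either strand, TATA and CCAAT boxes and the octamer known from H2B promoters (ATTTGCAT).
H2ac1: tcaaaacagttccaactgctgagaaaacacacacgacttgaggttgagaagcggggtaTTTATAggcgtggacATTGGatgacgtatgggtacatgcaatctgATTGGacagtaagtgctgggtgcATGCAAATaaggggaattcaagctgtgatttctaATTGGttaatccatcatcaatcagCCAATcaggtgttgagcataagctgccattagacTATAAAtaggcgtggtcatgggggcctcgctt
This window held 4 CCAAT boxes, of which 3 read in the direction of H2bc1, 2 TATA boxes, 1 in each direction, and 1 octamer in the direction of H2bc1. The octamer began at -124 from the H2ac1 start and at -164 from that of H2bc1.

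H2aw (gene 319162, chr11:58954685-58955192, plus strand) and H2bu2 (gene 78303, chr11:58948911-58949372, plus strand) form, with the pseudogene H2bu1-ps and the H3 gene H3f4, the small cluster on chromosome 11. The H2bu2 region ran from 341 bp before to 447 bp after the start, and covered all but the last part of the gene. The H2aw region ran from 415 bp before to 511 bp after the start, hence 4 bp past the gene end, and upstream it overlapped H2bu1-ps. These 2 regions were 4911 bp apart and held 0 and 4 bp past the gene end, fewer than the 147 to 1165 bp at the H1 and H3 genes. H3f4 had no listed region.

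The 3 H3 genes had regions of different layout. H3c11 (gene 319153, chr13:21782915-21783397, minus strand) encodes H3.1, and H3c13 (gene 319154, chr3:96268654-96269155, plus strand) and H3c15 (gene 97114, chr3:96238479-96239127, minus strand) encode H3.2, which differs from H3.1 at a single residue. At H3c11 the region ran from 148 bp before to 922 bp after the start, 440 bp past the gene end, and held no other histone gene. At H3c13 it ran from 119 bp before to 1666 bp after the start, 1165 bp past the gene end, and there it contained the whole of H2bc18, which lies downstream on the same strand. At H3c15 it ran from 1407 bp before to 795 bp after the start, 147 bp past the gene end, and upstream it contained the whole of H2ac19, also on the same strand. The H3c13 and H3c15 regions thus each covered 2 genes in tandem. The 250 bases before the starts of H3c11 (chr13:21783398-21783647, minus strand) and H3c13 (chr3:96268404-96268653, plus strand) are shown because the regions begin within them, with TATA and CCAAT boxes in capitals.
H3c11: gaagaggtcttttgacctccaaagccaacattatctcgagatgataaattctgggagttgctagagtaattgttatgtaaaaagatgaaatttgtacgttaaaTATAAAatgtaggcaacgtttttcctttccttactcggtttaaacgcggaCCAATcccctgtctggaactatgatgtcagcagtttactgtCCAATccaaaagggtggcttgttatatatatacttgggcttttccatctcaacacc
H3c13: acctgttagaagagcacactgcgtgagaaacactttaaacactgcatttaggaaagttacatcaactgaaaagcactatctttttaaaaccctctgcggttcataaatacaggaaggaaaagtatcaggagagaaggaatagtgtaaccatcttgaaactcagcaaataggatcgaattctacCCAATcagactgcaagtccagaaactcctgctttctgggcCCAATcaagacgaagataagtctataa
Both held 2 CCAAT boxes in the direction of the gene, at -97 and -56 in H3c11 and at -67 and -27 in H3c13. All of these lie inside the regions. A CCAAT box was also found in all 8 H3 promoter windows without a region, though in H3c14 only past the start, at 29 bp. The TATAAA match of H3c11 began at -147.

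H3c15 has a near-identical copy, H3c14, that is not listed. The pair H3c15 and H2ac19 on the minus strand and the pair H3c14 and H2ac18 on the plus strand point away from each other on chromosome 3, and the second pair lay 6150 bp (H3c14) and 4962 bp (H2ac18) from the nearest listed region. The 250 bases before the starts of H3c15 (chr3:96239128-96239377, minus strand) and H3c14 (chr3:96246435-96246684, plus strand) are shown to make this likeness visible; the capital marks the base that differs.
H3c15: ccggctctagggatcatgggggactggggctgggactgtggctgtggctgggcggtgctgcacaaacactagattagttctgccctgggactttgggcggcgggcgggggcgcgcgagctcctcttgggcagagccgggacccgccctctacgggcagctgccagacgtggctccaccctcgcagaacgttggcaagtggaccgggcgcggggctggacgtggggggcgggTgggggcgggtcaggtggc
H3c14: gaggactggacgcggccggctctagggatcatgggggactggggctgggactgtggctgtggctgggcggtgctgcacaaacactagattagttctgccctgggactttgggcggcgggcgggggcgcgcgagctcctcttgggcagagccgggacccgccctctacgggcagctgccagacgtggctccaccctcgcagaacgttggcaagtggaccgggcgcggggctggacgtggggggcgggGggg
Shifted by 15 bases, the 2 promoter windows agreed in all but 1 of 285 aligned bases (99.6%), with no gap. The windows of H2ac19 and H2ac18 differed at 7 of 258 aligned bases (97.3% identical). Reads from such copies can match both places, and how the authors treated reads with several matches is not given in the sources used here, so the difference in listing between the copies is uncertain and its source was not tested. For the other 8 called promoters, the best match among all other cluster promoters, each aligned end to end in the direction of its own gene, was 49.2% to 60.4% identical. Opposite strands were not aligned, so the bases that H2bc1 and H2ac1 share do not enter these values. Only promoter windows were aligned, whereas 43.0% of the bases in the 9 regions lie in the genes. No value for unrelated promoters is given beside them. Whether reads of the other regions match several places was therefore not tested.

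H4c14 (gene 97122, chr3:96262934-96263317) encodes histone H4 and lies between H3c15 and H3c13. Its region was 4996 bp from that of H3c13 and 21678 bp from that of H3c15. The region, 1326 bp wide, contained the whole 384 bp gene, with its centre 59 bp outside the gene. The 11 other H4 genes of the clusters, all on chromosome 13, had no listed region.

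Promoter composition was compared between 9 called genes and 50 of the 56 genes without a region, those with an entry in the promoter table (250 bases before to 50 after the start). Median G+C content was 45.3% in called genes, ranging from 39.3% to 72.7%, and 45.5% in the others, ranging from 33.3% to 72.7%. The difference in medians was -0.167 percentage points, small against the spread between promoters (SD of 7.07, n = 50, without a region). With means in place of medians it was 2.75 percentage points in the other direction. Both medians lay below the 52.7% of all 32851 promoters in the table. The median number of CpG dinucleotides was 11 in called genes and 10.5 in the others, both above the 7 of all promoters. H3c15 had the highest G+C content of the called genes, and its unlisted copy H3c14 shared the value of 72.7%. The 2 sets overlapped over nearly the whole range.

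**Figure D4:**
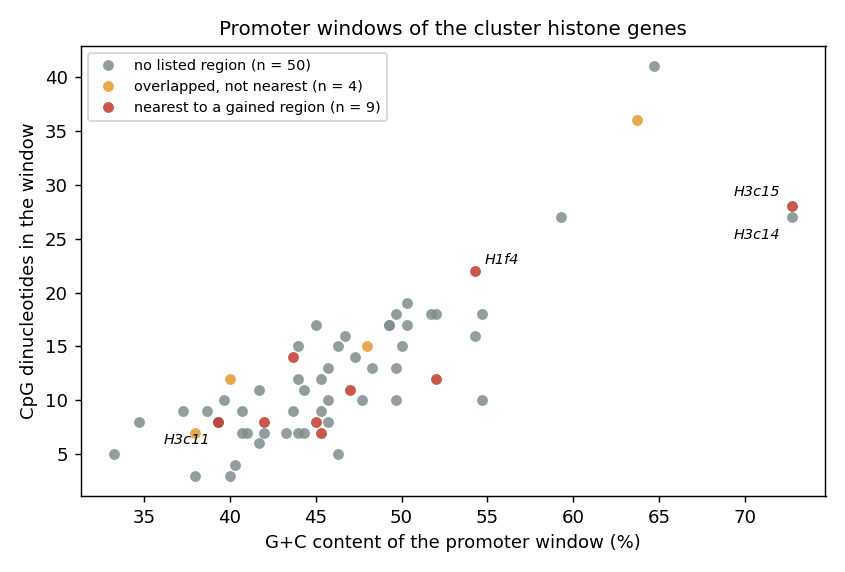
G+C content in % against the number of CpG dinucleotides in the promoter windows of cluster histone genes; each point is a promoter, coloured by the relation of its gene to the gained regions. Called genes lie among the others, from H3c11 at 39.3% to H3c15 at 72.7%.

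The promoter windows were searched for 7 motifs on both strands, none of which overlapped another in the called genes. The CCAAT box was found in 9 of 9 called promoters and 42 of 50 without a region, against 37.4% of all promoters. All 8 promoters without a CCAAT box were of H4 genes, which held it in 3 of 11, and the called set has no H4 promoter. Without H4 the count was 39 of 39 (100%), the same share as in called promoters. The only match of the called H3c15 lay past the start, at 14 bp. With bases before the start only, the CCAAT box was in 8 of 9 called promoters and 41 of 50 without a region. For the TATA box the counts were 6 of 9 and 30 of 50, against 13.6%, for the octamer ATTTGCAT 3 of 9 and 9 of 50, against 1.74%, and for AAACACA 3 of 9 and 6 of 50, against 7.18%. A match counted at any position in the window. The only TATAAA match began at -147 in H3c11 and at -94 in H2bc1. In H4c1 and H3f4, without a region, it lay past the start. With bases before the start only, the TATA box counts were 6 and 23. The H2bc1 and H2ac1 windows share most of their bases, so that 2 of the 3 octamers and 2 of the 3 AAACACA matches are the same site counted from both genes. The E2F motif TTTNGCGC was found in 0 of 9 called promoters and 14 of 50 without a region, against 1.38% of all promoters. Those 14 were 7 of 15 H2A and 7 of 12 H2B promoters, but not 14 separate sites: 12 of them share a match with another promoter, and the distinct sites number 8. With windows that overlap on the genome joined and counted once (added after seeing the data), the E2F motif was in 0 of 8 called stretches and 8 of 41 without a region (19.5%). The called H2A and H2B genes H2ac1, H2bc1, H2aw and H2bu2 held none. TGACGTCA, the cyclic AMP response element, was found in 0 of 9 and 4 of 50 (1.79% of all promoters), and AACGTCCG, a core of the site of the H4 gene factor HINFP, in 0 of 9 and 0 of 50 (0.225%). No match says only that these letters are not in the window. The differences were not tested, because promoters of a gene family are no independent replicates.

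**Figure D5:**
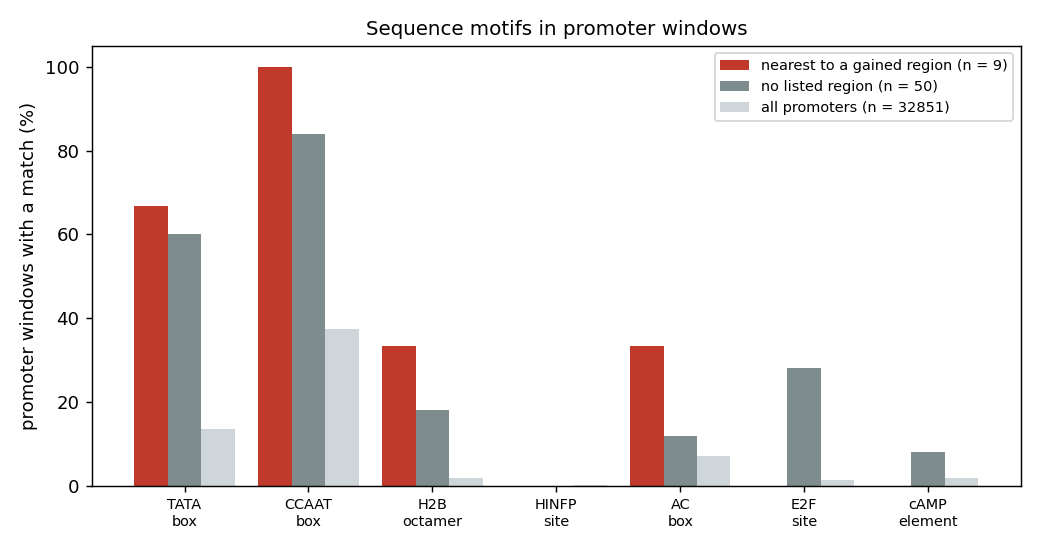
Share in % of promoter windows with a match to 7 motifs, for 9 called histone genes, 50 cluster histone genes without a listed region and all 32851 promoters. The CCAAT box is in 100% of called and 84% of uncalled windows (100% of these without H4 genes, a type absent from the called windows), and the E2F motif in 0% and 28%; windows that overlap are each counted, and with these joined the E2F share without a region is 19.5%.

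Genes that supply, process or deposit histones were not among the listed genes. The list held 30 genes: 13 for the transcription and end processing of histone RNA (among them Npat, Hinfp, Slbp and Casp8ap2), 8 histone chaperones (among them Asf1a, Chaf1a and Hira) and 9 histone variants (among them H3f3a, H3f3b and H2az1). None of the 30 had a gained (0%) or lost (0%) region centred within 1 kb, nor within 10 kb. The closest lost region to any of them lay 139851 bp from Pou2f1, which encodes the octamer-binding factor OCT1, and the closest gained region 202774 bp from Lsm11, part of the particle that processes histone RNA ends. The share of all protein-coding genes with a gained region is itself 0.905%, so that a count of 0 among 30 genes is near the background and is not a result about them.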

How the data were processed

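The data were the authors' deposited lists of ATAC-seq regions gained and lost after cycloheximide, 2 lists of chromosome, start, end and name without a header or score, which describe 4 control and 4 treated libraries. Bowtie2 2.2.4 and SAMtools, and the builds mm10, mm9 and GRCm38, are named without a role, per the submitters' processing notes. The peak caller, thresholds, differential test, pooling of replicates and treatment of reads with several matches are not given in the sources used here. Positions were read as GRCm38, in which 7 regions enclose whole histone genes, and are given 1-based. Depth is unknown.

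Genes came from the RefSeq table of GRCm38.p6 (49943 genes on the chromosomes) and promoters from the RefSeq promoter table of the same build, in which 9 of the 10 genes matched. Histone genes were found by symbol or by older Hist symbols. A region was assigned by its centre, rounded down to a whole base, to the nearest histone gene, at most 1 kb away. Promoters were aligned globally, each in the direction of its gene, with Biopython 1.88. Python 3.11.15, numpy 2.4.6 and pandas 2.3.3 were used, and the assignment and motif search were tested on simulated input. No test over samples was possible, so all comparisons are counts and medians. The genes and lists were chosen with earlier results of these data known. Named were the 10 genes, genes touched by their regions, the 5 closest unlisted histone genes and genes nearest to other regions of the clusters; H3c14, H2ac18, H3f4, Pou2f1, Lsm11, Macroh2a3 and other H1 genes were named after their values were seen. Alternatives covered distance limits, joined or wide regions, the first block, gene sets, overlap, strand, promoter window and, added after seeing the data, joined promoter windows and H4 promoters left out.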

Additional observations from a re-analysis of the deposited data

How the results depend on the processing

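Of 78 recomputed values, 71 counts, widths or G+C differences stayed within set limits, 6 moved past them and 1 reversed. The limits were 1.5 times the value given for a count, and for widths and G+C content a shift of less than 1 SD between the called genes. Some of the 71 could not move, namely motif counts of 0 and the distance limits, as no region centre lay between 306 and 42799 bp. The number of histone genes with a gained region was 6 when the region centre had to lie inside the gene, since H2ac1, H3c13, H3c15 and H4c14 have their region centre outside it. It was 10 at limits of 500 bp, 2 kb and 5 kb, 9 with regions within 50 bp joined, which merges those of H2bc1 and H2ac1, 7 in the first block and 14 with every gene within 1 kb of a region edge. The difference in promoter G+C content reversed from -0.167 to 2.75 percentage points with means. On the gene strand alone, the octamer was found in 1 called promoter and 4 without a region, and the E2F motif in 7 without a region. With overlapping windows counted once, chosen after seeing the data, the E2F motif was in 8 without a region. Without H4 promoters, also chosen so, the cyclic AMP response element was in 2 of 39 without a region. No lost region lay in the windows in any of the 3 settings tried. No paired analysis was possible because the lists hold no value per library, and for the same reason no replicate could be left out. The protein comparison that was planned was not run, as no protein sequences were used here. A region near the authors' threshold counts as much as one far past it.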

Other observations

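The windows of the 3 clusters also hold 218 genes that are not histone genes, among them 84 tRNA genes, 57 protein-coding genes and 54 pseudogenes. Of the 218, 3 had a gained region centred within 1 kb (1.38%), and each of these shares its region with a histone gene: Trim17 overlaps the region of H2aw, and the lncRNA genes Gm51864 and Gm33516 overlap those of H2bu2 and of H2bc1 and H2ac1. None of the 84 tRNA genes, which RNA polymerase III transcribes, had one (0%). The share of all protein-coding genes with a gained region was 0.905%. Both counts are thus near the background and are not a result about these genes. The 2 gained regions of the windows that lie away from histone genes were, in the authors' deposited table, 465 bp wide on chromosome 3 (96312759 to 96313223), 9083 bp from the tRNA gene n-TNgtt4, and 1149 bp wide on chromosome 13 (22422953 to 22424101), 17745 bp from Vmn1r-ps103, which the annotation lists as protein-coding despite its symbol.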
